A study of Mus musculus with 14 samples.

Results

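The 9 genes described here encode parts of the complement system and were matched on the gene symbol in both deposited tables, where all 9 were found, among 56953 genes after BaCl2 and 14330 after glycerol. They are the C1q chains C1qa, C1qb and C1qc, the C1 proteases C1s1 and C1ra, the components C4b and C3, the inhibitor Serping1 and the receptor C3ar1. RNA came from freshly isolated fibro-adipogenic progenitors (FAPs), mesenchymal stromal cells of muscle that can form fat and fibrous tissue, taken by magnetic sorting (MACS) from the tibialis anterior muscle 3 days after injury. The labels give the genotypes as SMA (taken to mean spinal muscular atrophy) and WT (wild type), with no allele, age, sex, strain or sorting antibody. There were 3 SMA and 3 WT libraries after BaCl2, which kills muscle fibres, and 4 SMA and 4 WT libraries after glycerol, an injury that is followed by more fat. In the labels each injury is also a batch, and the effects of both cannot be told apart. They do not say whether libraries of a group are separate animals, and the p-values therefore cover library-to-library spread, which may be technical.

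Complement is a cascade of proteins that tags and clears debris and microbes. In its classical branch, C1q binds a surface and the attached proteases C1r and C1s cleave C4 and C2, after which C3 is cleaved and its fragments coat the target or act through receptors such as C3ar1. In tissues, C1q is mainly a product of macrophages, while fibroblasts make much of the C1r, C1s, C3, C4 and C1 inhibitor.

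The BaCl2 values are read counts, given here as CPM, counts per M (mega) after TMM scaling for library composition, from libraries of 97.7 M to 136 M counts. The glycerol values are the authors' normalized counts, whose depth is unknown. The tables were made separately, so levels are not compared between injuries. Smn1, the gene whose loss underlies the disease, was at 9.995 to 11.96 CPM in the SMA and 15.3 to 17.2 CPM in the WT libraries after BaCl2, and at 640 to 806 against 935 to 1209 normalized counts after glycerol. In both tables the SMA libraries were all below the WT libraries. FAP marker transcripts, most of them of collagen genes, summed to 62386 CPM or more in every BaCl2 library. A list of 19 macrophage and monocyte markers summed to 1236 to 3268 CPM, so RNA of those cells was present too. Every complement value below is from RNA of such a mixture, in which fewer cells of a type and less RNA per cell cannot be told apart.

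The 3 C1q chains, which assemble into the molecule that starts the classical branch, were higher in the SMA libraries after BaCl2. C1qa was at 107, 85.8 and 73.6 CPM in the SMA libraries and at 60.7, 41.3 and 39.0 CPM in the WT libraries. C1qb, the most abundant chain, was at 184, 151 and 124 CPM against 96.4, 71.2 and 69.4 CPM. C1qc was at 94.9, 85.4 and 67.9 CPM against 53.6, 37.0 and 36.5 CPM. For each chain every SMA library lay above every WT library, and the first library was the highest of its group in both genotypes. The log2 fold changes were 0.92 for C1qa (SE 0.17, adjusted p = 0.0188), 0.95 for C1qb (SE 0.15, adjusted p = 0.0116) and 0.97 for C1qc (SE 0.16, adjusted p = 0.0121), by the quasi-likelihood test of edgeR with Benjamini-Hochberg adjustment over 20119 genes.

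C3ar1, the receptor for the C3a fragment on myeloid cells, was higher in SMA after BaCl2 too. It was at 78.8, 64.9 and 57.6 CPM in the SMA libraries and at 35.6, 28.6 and 32.0 CPM in the WT libraries, again without overlap. Its log2 fold change was 1.06 (SE 0.12, adjusted p = 0.00376, edgeR). With the chains of C1q, 4 of the 9 members were called higher and 0 lower, where 2.73% of all genes tested were called higher, 1.56% lower and 4.29% either way. In edgeR 3 members (C1ra, C4b and Serping1) were lower at an unadjusted p under 0.05, and DESeq2 called 1 member lower (Serping1) and limma on log2 CPM called 0. Every SMA library lay above every WT library for 12.2% of all genes, and below for 13.1%.

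C3ar1 passed with each of the 6 libraries left out in turn (adjusted p 0.000299 to 0.0456, edgeR). The C1q chains did not pass without SMA library 2 (adjusted p 0.0536 to 0.0736), without WT library 2 (0.0704 to 0.105) or without WT library 3 (0.0806 to 0.109). SMA libraries 1 and 2 held the most macrophage marker RNA, and with both left out the log2 fold change was 0.84 for C3ar1 and 0.64 to 0.68 for the chains. That leaves 1 SMA library, assumed to vary as the WT libraries do, and C3ar1 was the 1 member called (adjusted p = 0.0251, edgeR).

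**Figure D1:**
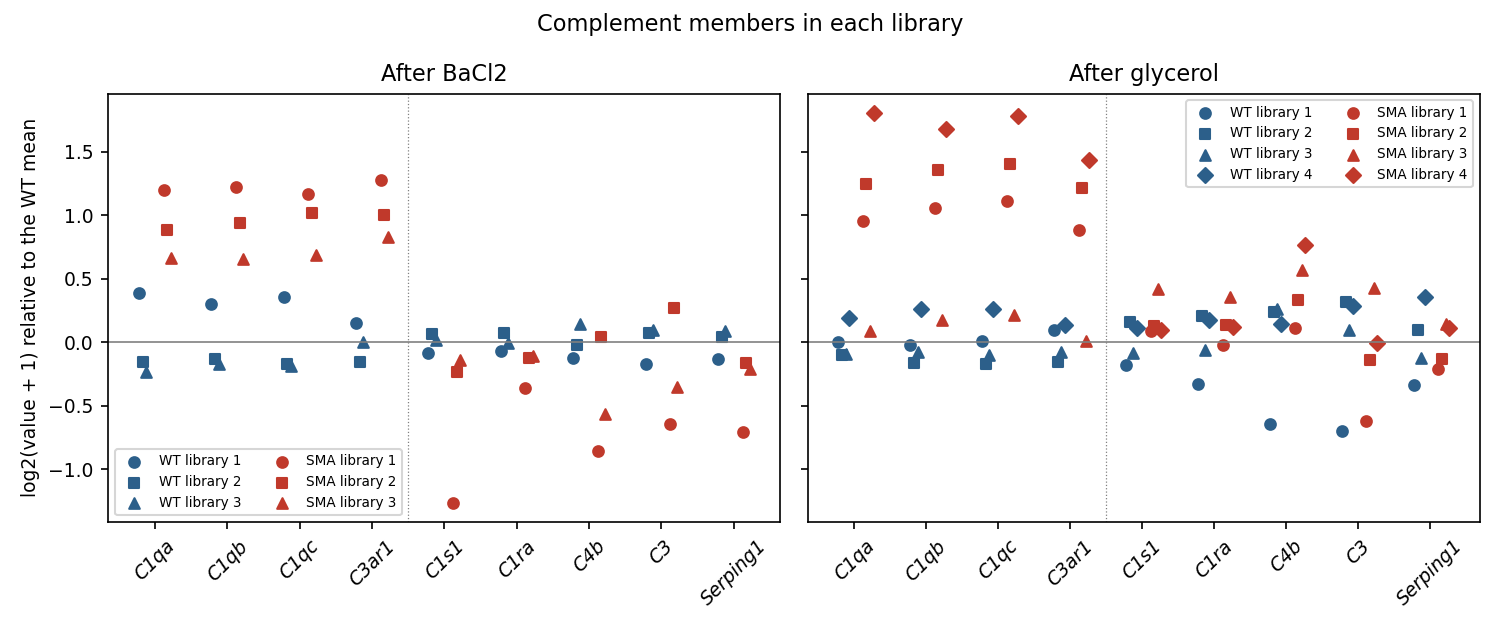
Level of each of the 9 genes in each library, as log2(value + 1) relative to the mean of the WT libraries of the same injury (vertical axis), after BaCl2 in CPM and after glycerol in normalized counts. Marker shapes are library numbers and colours are genotypes. To the left of the dotted line the SMA libraries lie above WT except SMA library 3 after glycerol. To the right the genotypes overlap after glycerol. After BaCl2 they overlap for C4b and C3, and all SMA libraries lie below WT for C1s1, C1ra and Serping1.

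After glycerol the same 4 genes were high in 3 of the 4 SMA libraries. C1qa was at 7231, 8857, 3975 and 13065 normalized counts in the SMA libraries and at 3739, 3478, 3506 and 4254 in the WT libraries. C1qb was at 13462, 16582, 7310 and 20721 against 6351, 5763, 6122 and 7745, and C1qc at 7535, 9207, 4043 and 11952 against 3496, 3092, 3237 and 4164 normalized counts. C3ar1 was at 8365, 10501, 4555 and 12267 against 4852, 4063, 4294 and 4972. SMA library 3 lay inside the WT range for all 4 genes, and the other 3 SMA libraries lay above every WT library. No member had all SMA libraries above or all below WT after glycerol, as 6.59% and 7.54% of all genes had.

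The log2 fold changes after glycerol were 1.02 for C1qa (SE 0.30, adjusted p = 0.0890), 1.07 for C1qb (SE 0.27, adjusted p = 0.0680), 1.13 for C1qc (SE 0.28, adjusted p = 0.0648) and 0.89 for C3ar1 (SE 0.26, adjusted p = 0.0930), by limma on log2(value + 1). None of the 9 members passed, where 2.87% of 14330 genes did (1.7% higher and 1.17% lower), although these 4 had unadjusted p-values under 0.05. Without SMA library 3 all 4 passed, with log2 fold changes of 1.34, 1.37, 1.43 and 1.18 and adjusted p-values of 0.00251, 0.00114, 0.00117 and 0.00114 (limma). The authors' deposited table lists all 4 as higher in SMA after glycerol, with adjusted p-values of 0.00099 for C1qa, 0.000212 for C1qb, 0.000131 for C1qc and 0.00179 for C3ar1. It lists them as higher after BaCl2 too, with adjusted p-values of 0.00713, 3.11e-08, 6.82e-08 and 8.73e-15 in the authors' deposited table.

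Over single genes, the exact two-sided permutation test gave p = 0.1 after BaCl2 for the C1q chains and C3ar1, the smallest value that 3 against 3 libraries allow, and the same for C1s1, C1ra and Serping1. For C4b and C3 it gave 0.3 and 0.5. After glycerol the exact test gave p = 0.0571 for each chain and 0.0857 for C3ar1, and over the 18 such tests the lowest adjusted value was 0.164.

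The 3 chains kept nearly fixed proportions to each other. Of their summed level, C1qb held 45.3% to 47.9% in every one of the 14 libraries, C1qa 25.6% to 28.8% and C1qc 24.6% to 26.7%. Their transcripts shared no word of 50 bases.

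RefSeq sequence upstream of the start site (GRCm38.p6) was at hand for 6 of the 9 genes, of which the 3 that were high together in SMA are shown, each as the 250 bases before the start, written 5′ to 3′ on the gene's strand. Capitals mark ACTTCCT, the complement of the motif AGGAAGT, a core of sites bound by PU.1, a factor of myeloid cells, with 1 more base where the longer form GAGGAAGT matched.
C1qb, chr4:136886201-136886450, minus strand: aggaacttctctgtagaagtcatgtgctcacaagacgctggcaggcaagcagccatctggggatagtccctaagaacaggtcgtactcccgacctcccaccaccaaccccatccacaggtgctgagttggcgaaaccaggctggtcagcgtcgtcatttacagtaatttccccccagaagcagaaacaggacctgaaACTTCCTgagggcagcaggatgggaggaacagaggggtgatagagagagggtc
C1qc, chr4:136892915-136893164, minus strand: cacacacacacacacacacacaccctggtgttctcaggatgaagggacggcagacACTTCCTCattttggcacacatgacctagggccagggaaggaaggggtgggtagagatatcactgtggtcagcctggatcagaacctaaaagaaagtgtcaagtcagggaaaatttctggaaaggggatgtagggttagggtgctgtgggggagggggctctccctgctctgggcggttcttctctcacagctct
C3ar1, chr6:122856158-122856407, minus strand: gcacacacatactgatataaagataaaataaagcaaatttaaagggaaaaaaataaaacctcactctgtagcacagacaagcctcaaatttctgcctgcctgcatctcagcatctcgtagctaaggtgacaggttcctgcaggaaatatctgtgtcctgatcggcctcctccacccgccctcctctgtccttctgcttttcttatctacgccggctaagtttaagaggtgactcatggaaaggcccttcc
The longer form was searched first and matched C1qc only. The shorter form, tried after the sequences had been read, matched C1qb as well, 53 bases before the start, while the C1qc match lies 195 bases before it. Searched on both strands, the longer form is in 2.44% and the shorter, which it contains, in 7.69% of 32851 mouse promoter windows of the same length, and neither is in the C3ar1 window. A match describes these letters only. The interferon-stimulated response element core, the gamma-activated site TTCNNNGAA and the NF-kappaB motif (in 2.98%, 7.02% and 0.356% of windows) were in none of the windows of the 6 genes. TTGCGNAA, a C/EBP core found in 0.67% of windows, was in the C3 window alone, 45 bases before the start.

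The other 5 genes, which stroma is known to make, were not called in SMA after either injury. C1s1, the protease that cleaves C4, was at 141, 288 and 307 CPM in the SMA libraries after BaCl2 and at 320, 354 and 342 CPM in the WT libraries. Every SMA library was below every WT library, and SMA library 1 was far below the rest. Its log2 fold change was -0.47 (SE 0.23, adjusted p = 0.296, edgeR), and without SMA library 1 it was -0.18. After glycerol C1s1 was at 38656, 39755, 48550 and 38832 normalized counts in SMA and 32045, 40576, 34249 and 39222 in WT, with overlap (0.18, SE 0.10, adjusted p = 0.291, limma).

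C1ra, the protease that activates C1s, was at 158, 186 and 188 CPM in SMA and at 193, 214 and 203 CPM in WT libraries after BaCl2. All SMA values were lower, by a small margin (log2 fold change -0.20, SE 0.08, adjusted p = 0.199, edgeR). After glycerol C1ra was at 19124, 21280, 24745 and 21111 normalized counts in SMA and 15429, 22357, 18595 and 21927 in WT (0.15, SE 0.12, adjusted p = 0.502, limma), and the groups overlapped.

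C4b, the substrate of C1s, was at 62.0, 117 and 76.0 CPM in SMA and 103, 112 and 125 CPM in WT libraries after BaCl2. SMA library 2 lay within the WT range and the others below it (log2 fold change -0.42, SE 0.19, adjusted p = 0.258, edgeR). Without SMA library 2 C4b passed as lower (-0.71, adjusted p = 0.0396, edgeR). After glycerol the sign was the other way, at 9426, 10990, 12907 and 14765 normalized counts in SMA against 5556, 10284, 10443 and 9593 in WT (0.45, SE 0.21, adjusted p = 0.241, limma), and 3 SMA libraries lay above all WT libraries.

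C3, on which all branches converge, was at 684, 1289 and 838 CPM in SMA and at 950, 1121 and 1143 CPM in WT libraries after BaCl2 (-0.19, SE 0.19, adjusted p = 0.646, edgeR). Among SMA libraries it spread more widely than the genotypes differed. After glycerol it was at 63334, 88690, 131360 and 97267 against 60019, 121500, 104257 and 119285 normalized counts (-0.08, SE 0.26, adjusted p = 0.881, limma), again with wide overlap.

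Serping1, which encodes the inhibitor that removes C1r and C1s from C1, was at 354, 516 and 500 CPM in SMA and 528, 597 and 617 CPM in WT libraries after BaCl2. The groups did not overlap, and the log2 fold change of -0.35 (SE 0.13, adjusted p = 0.169, edgeR) did not pass. After glycerol it was at 34695, 36707, 44478 and 43438 against 31845, 43062, 36920 and 51319 normalized counts (-0.02, SE 0.14, adjusted p = 0.955, limma). DESeq2 called Serping1 lower after BaCl2 (adjusted p = 0.0439), and without a filter on low counts edgeR called C1s1, C4b and Serping1 lower.

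**Figure D2:**
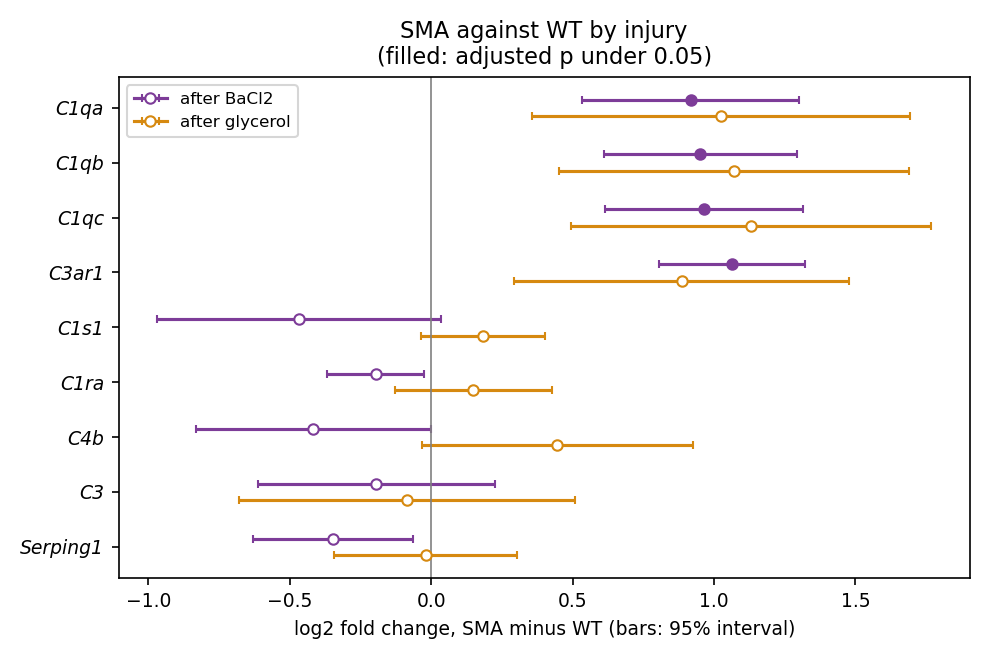
Log2 fold change of SMA against WT (horizontal axis) for each of the 9 genes, with its 95% interval, after BaCl2 (edgeR) and after glycerol (limma). Filled points passed an adjusted p of 0.05, which were the 3 C1q chains and C3ar1 after BaCl2. C4b, C1s1 and C1ra have opposite fitted signs in the 2 injuries.

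The SMA effect was then compared between injuries, as glycerol minus BaCl2. None of the 9 members passed, where 3.8% of 13960 genes did (1.88% higher and 1.92% lower), and 3 (C1s1, C1ra and C4b) had unadjusted p-values under 0.05. C4b came nearest, with a difference of 0.86 in log2 fold change (SE 0.28, adjusted p = 0.0846), and passed with a normal reference in place of the t distribution (adjusted p = 0.0280). For C1s1 the difference was 0.65 (SE 0.25, adjusted p = 0.144). For the C1q chains and C3ar1 it was between -0.18 and 0.17, and the 95% interval for C1qa reached from -0.62 to 0.84, which spans 0.

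C1s1 and C1ra each have a near-identical neighbour in the mouse genome, C1s2 and C1rb, and reads of the pairs can be split by the counting. The coding sequences (GENCODE vM21) were 95.7% identical for C1s1 and C1s2 and 98.02% identical for C1ra and C1rb. Of the 50-base words of the C1s1 transcript 24.3% also occur in C1s2, and of those of C1ra 48.0% occur in C1rb. A window of typical identity is shown for each pair, bases 322 to 381 of the C1s1 and C1s2 coding sequence and 1 to 60 of C1ra and C1rb, with the differing bases in capitals.
C1s1: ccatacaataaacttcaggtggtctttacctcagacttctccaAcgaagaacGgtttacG
C1s2: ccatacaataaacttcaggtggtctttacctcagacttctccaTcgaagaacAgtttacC
C1ra: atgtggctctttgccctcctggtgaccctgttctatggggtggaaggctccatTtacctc
C1rb: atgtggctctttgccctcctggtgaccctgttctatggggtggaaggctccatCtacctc

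C1s2 stood out in SMA after BaCl2, in 2 libraries. It was at 20.2, 4.49 and 1.78 CPM in the SMA libraries and at 1.94, 1.20 and 1.24 CPM in the WT libraries, and made up 12.6%, 1.53% and 0.575% of the C1s1 and C1s2 reads in SMA against 0.601%, 0.338% and 0.360% in WT. For the first SMA library this is 2064 of 16417 reads (95% interval 12.1% to 13.1%, exact Clopper-Pearson, counting error only). C1rb made up 6.25%, 1.82% and 0.388% of the C1ra and C1rb reads in SMA and 0.265%, 0.363% and 0.290% in WT. So for both pairs the paralog's share was highest in SMA library 1 and next in SMA library 2.

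By edgeR neither paralog passed (C1s2 log2 fold change 2.59, SE 0.71, adjusted p = 0.0731, C1rb 2.96, SE 0.73, adjusted p = 0.0515). The call depended on the setting and on the library. DESeq2 called C1rb higher (adjusted p = 0.0248) and not C1s2 (0.0613), and edgeR without a filter on low counts called both (6.66e-09 and 3.07e-08), as it did with the replicate number as a block (0.0489 and 0.0224) and without SMA library 3 (0.000703 and 0.00299). Without SMA library 1 the log2 fold changes were 1.75 for C1rb and 1.11 for C1s2 and neither passed (adjusted p = 0.116 and 0.154, edgeR). After glycerol the shares were 0.239% to 0.363% for C1s2 and 0.0761% to 0.210% for C1rb, with no library apart. The neighbouring genes Lpcat3 (37.8 to 44.6 CPM) and Pex5 (87.4 to 96.1 CPM) varied little after BaCl2. Gm18840, a gene model looked up with them, had few reads. It was at 44, 10 and 0 reads in SMA libraries 1, 2 and 3 and at 1, 0 and 0 in the WT libraries. With each pair summed, the log2 fold change after BaCl2 was -0.42 for C1s1 and -0.16 for C1ra, and neither passed (adjusted p = 0.266 and 0.230, edgeR). C4a, the paralog of C4b, was at 1.39 to 2.34 CPM and made up 1.23% to 2.99% of the reads of that pair. Of the 50-base words of the C4b transcript 35.2% also occur in C4a.

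**Figure D3:**
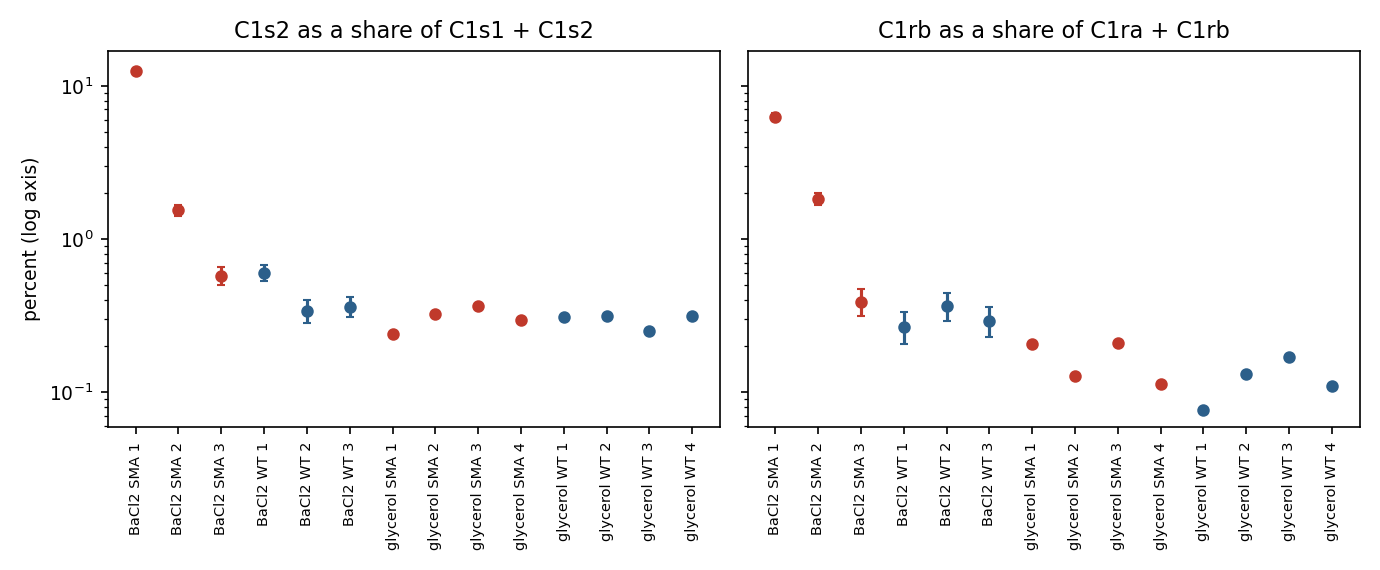
Share of reads (after glycerol, of normalized counts) assigned to the paralog in each library, in percent on a log axis, for C1s2 of C1s1 and C1s2 and for C1rb of C1ra and C1rb. Red is SMA and blue is WT, and bars after BaCl2 are 95% Clopper-Pearson intervals. SMA libraries 1 and 2 after BaCl2 stand at 12.6% and 1.53% for C1s2, above the other libraries.

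The members fell into 2 sets that moved together from library to library. Over the 6 BaCl2 libraries Pearson's r of log2 values was 0.96 to 0.996 among the C1q chains and C3ar1, and 0.73 to 0.97 among C1s1, C1ra, C3, C4b and Serping1. Between the sets it was -0.91 to -0.47. Over the 8 glycerol libraries r was 0.99 to 0.9996 in the first set, 0.58 to 0.93 in the second and -0.35 to 0.49 between them. The libraries include both genotypes and share their scaling, so these are descriptions.

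**Figure D4:**
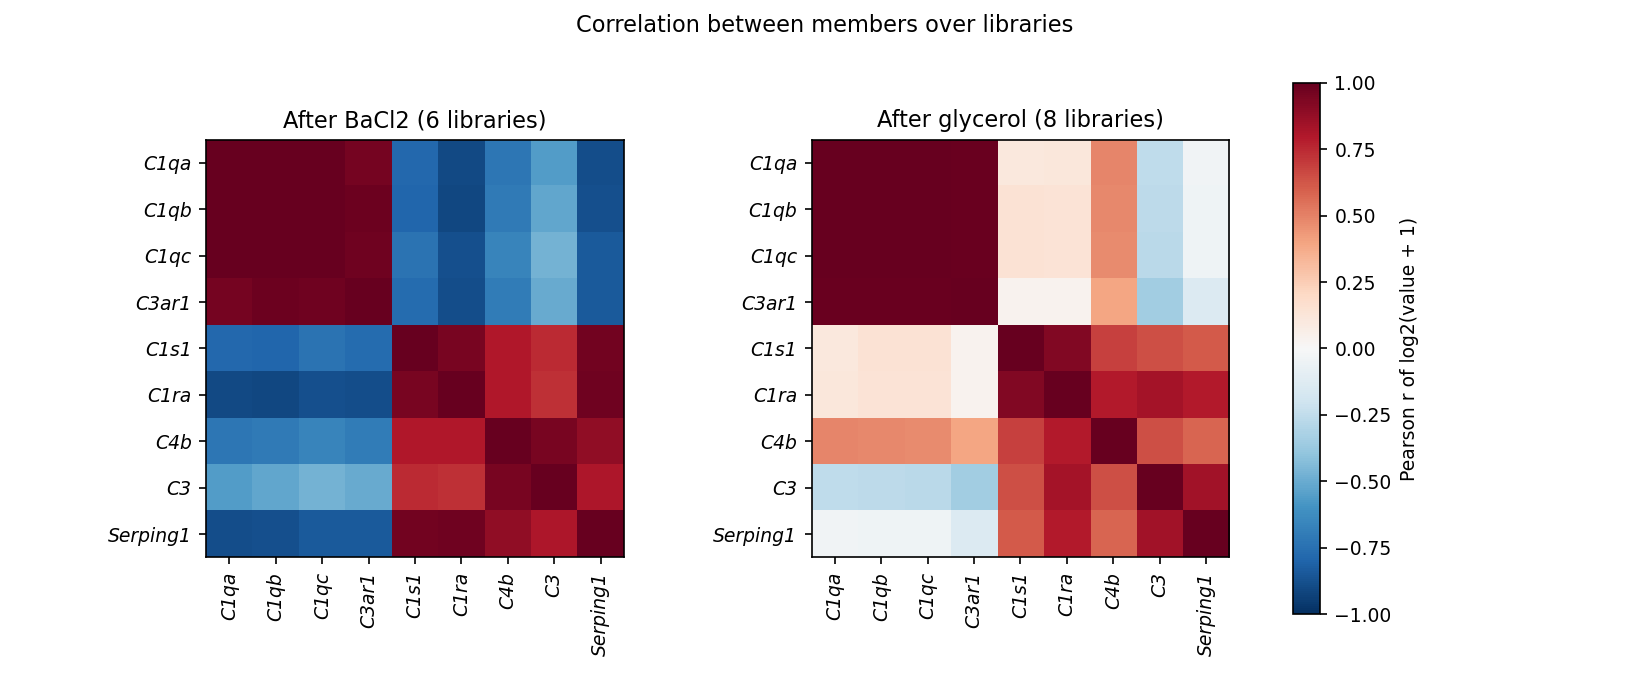
Pearson correlation (colour, -1 to 1) of log2(value + 1) between each pair of the 9 genes, over the 6 BaCl2 and the 8 glycerol libraries. The C1q chains and C3ar1 form one block and the other 5 genes another. Between the blocks r is -0.91 to -0.47 after BaCl2 and -0.35 to 0.49 after glycerol.

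Among 6505 genes compared in both tables, those most like a member were chosen by the lower of the 2 correlations. For C1qa they were Tmsb4x, Lgmn and Cd84 (lower r 0.99, 0.98 and 0.98), and for C3ar1 Myo1f, Ucp2 and Atp13a2 (0.997, 0.99 and 0.99). For C1s1 they were Zfp36l1, Fmo1 and Gxylt2 (0.97, 0.94 and 0.93), and for Serping1 Tmem176b, Zhx3 and Igfbp4 (0.93, 0.89 and 0.89). C3 was most like Serpina3n, Nckap5l and Tshz2 (0.85, 0.85 and 0.84), and C4b most like H2-K1, Il3ra and Clec3b (0.87, 0.83 and 0.83).

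The C1q chains and C3ar1 moved with the macrophage list. After BaCl2, 16 of its 19 markers were called higher in SMA (median log2 fold change 0.90, all genes -0.0028), and after glycerol 9 of 19 (median 0.99999, all genes -2.03e-05). Of all genes tested, 2.73% were called higher after BaCl2 and 1.7% after glycerol. Csf1r, the growth factor receptor of macrophages, was at 189, 164 and 127 CPM in SMA and 104, 79.6 and 85.2 CPM in WT libraries after BaCl2. The summed list lay at 2266 to 3268 CPM in SMA and 1236 to 1706 CPM in WT libraries, and after glycerol at 135307 to 322170 and 113369 to 146667 normalized counts, the lowest SMA value being that of library 3. No marker on the list was at 0 in every library, while the mast cell list summed to at most 4.48 CPM and the lymphocyte list to at most 1.99 CPM. Other lists had positive medians after BaCl2 too, at 1.16 for neutrophil, 1.06 for Schwann and 0.71 for pericyte and smooth muscle markers. Of those tested, 1 of 5, 2 of 5 and 1 of 5 were called higher, and 1 neutrophil marker lower, where 1.56% of all genes were. After glycerol these medians were 0.28, 0.23 and -0.58, with 1 neutrophil marker called higher.

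The mean log2 level of the macrophage list was 0.87 higher in SMA after BaCl2 and 0.92 higher after glycerol. Measured relative to that mean, C1qa differed between the genotypes by 0.04 after BaCl2 and 0.10 after glycerol, C1qb by 0.07 and 0.15, C1qc by 0.08 and 0.21, and C3ar1 by 0.16 and -0.04. Relative to the FAP list mean, C1s1 differed by -0.29 and 0.09, C1ra by 0.06 and 0.05, C3 by 0.02 and -0.18, C4b by -0.20 and 0.35, and Serping1 by -0.11 and -0.12. The part of the cell mixture in the results was not tested beyond these values.

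**Figure D5:**
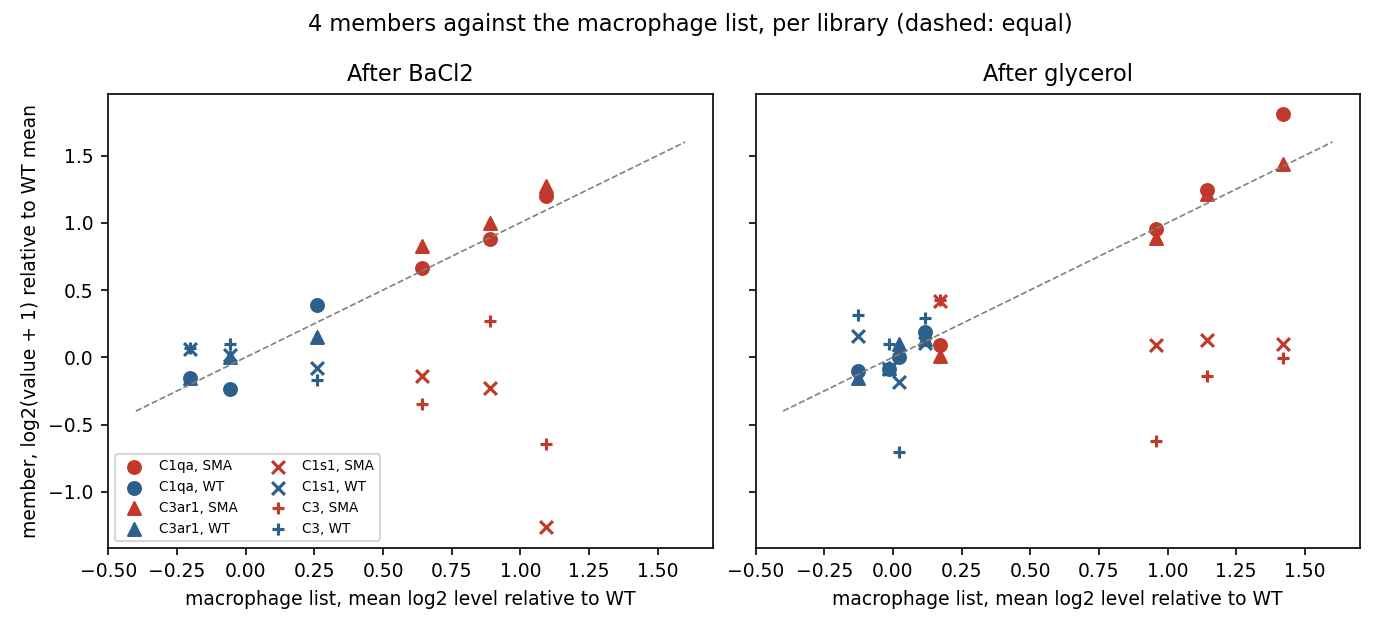
Log2(value + 1) of C1qa, C3ar1, C1s1 and C3 relative to the WT mean (vertical axis) against the mean log2 level of the 19 macrophage markers relative to WT (horizontal axis), per library. The dashed line marks equal values. C1qa and C3ar1 lie near it in each library except C1qa in SMA library 4 after glycerol, and C1s1 and C3 do not follow it.

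The FAP list had 5 of 13 markers called lower after BaCl2 (median -0.23, Dpt -0.56, adjusted p = 0.0162, edgeR), where 1.56% of all genes were. After glycerol 0 were called lower, where 1.17% of all genes were. At an unadjusted p under 0.05, 1 was lower and 2 higher there (limma). The 5 were Ly6a, Lum, Col1a2, Col3a1 and Dpt, named after their values were seen. Its summed level was 62386 to 81390 CPM in SMA and 91246 to 99852 CPM in WT libraries after BaCl2, without overlap, and 4843790 to 6023650 against 4964540 to 6677270 normalized counts after glycerol. Col1a1, Col1a2 and Col3a1 made up most of each sum, at 17388, 16695 and 19158 CPM in SMA library 1 after BaCl2. The fitted values of 12 of the 13 markers were negative after BaCl2. Of the 13, 8 were not called, among them Pdgfra (-0.04, adjusted p = 0.889, edgeR).

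Per kilobase of exon, Serping1, C3 and C1s1 were the most abundant of the 9 members in WT libraries, while C4b, which stroma also makes, was among the lowest. After BaCl2 the mean level in WT was 250 CPM per kb for Serping1 (SD 20.03), 208 for C3 (SD 20.6) and 108 for C1s1 (SD 5.52). C1qb followed at 72.6 (SD 13.9), next to C1ra at 68.2 (SD 3.45), within its spread, then C1qa at 45.2 (SD 11.5). C1qc at 21.9 (SD 5.04) and C4b at 19.9 (SD 1.92) did not differ beyond their spread, and C3ar1 was lowest at 7.45 (SD 0.804). After glycerol the order was the same but for C3 before Serping1 and C1ra before C1qb, pairs that lay within their spread there. Lengths are exon unions of GENCODE vM21, which may not be the annotation of the tables. They were not corrected for 50-base words shared with a paralog, 24.3% for C1s1, 48.0% for C1ra and 35.2% for C4b. Reads of these genes may be undercounted, and their place in the order is uncertain. For C1qc the exon union has 1931 bases and the longest transcript 1203. Its level per kb may therefore be too low, and its place is uncertain too.

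The other complement genes were examined as a list of 46, of which 34 were tested after BaCl2 and 31 after glycerol. After BaCl2, 5 were called higher, all receptors, and 0 lower (9 and 1 at an unadjusted p under 0.05, edgeR), where 2.73% of all genes were called higher. C5ar1, the receptor for C5a, was at 62.4, 53.5 and 38.5 CPM in SMA and 27.5, 22.3 and 23.3 CPM in WT libraries (log2 fold change 1.08, SE 0.15, adjusted p = 0.00744, edgeR). Itgam and Itgb2, the chains of complement receptor 3, changed by 1.13 (SE 0.17, adjusted p = 0.00844) and 1.09 (SE 0.16, adjusted p = 0.00912), and Itgax, an integrin chain that pairs with Itgb2, by 0.84 (SE 0.19, adjusted p = 0.0340). Cd93, a membrane protein once described as a C1q receptor, changed by 0.99 (SE 0.16, adjusted p = 0.0121). For these 5 genes every SMA library lay above every WT library, as for 12.2% of all genes. Myeloid cells are known to carry the integrins and C5ar1. Without WT library 3 none of the 5 passed (adjusted p 0.0613 to 0.152, edgeR), Cd93 and Itgax did not without SMA library 2 (0.0575 and 0.147), and Itgax did not without WT library 2 (0.137).

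Endothelium also carries Cd93. After BaCl2 the fitted values of all 6 endothelial markers were positive and 0 passed (median 0.48), with sums of 165 to 213 CPM in SMA and 75.2 to 189 CPM in WT libraries. After glycerol 2 of 6 were called lower (median -0.99), and in the difference between injuries 4 of 6 (median -1.51). Of all genes tested, 1.17% were called lower after glycerol and 1.92% in the difference. Cd93 was at a log2 fold change of 0.33 after glycerol (adjusted p = 0.400, limma) and a difference of -0.66 (adjusted p = 0.167, edgeR and limma fits). The part of endothelial RNA in the Cd93 values was not tested.

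The receptors made up 5 of 9 tested, and 0 of 6 proteases, 0 of 4 lectins, 0 of 2 alternative pathway genes, 0 of 4 fluid-phase regulators, 0 of 6 membrane regulators and 0 of 3 terminal components passed after BaCl2. After glycerol 1 of 31 was called, near the 2.87% of all genes that were. It was C5ar2, another C5a receptor (173, 195, 122 and 267 against 82.5, 57.9, 93.3 and 88.1 normalized counts, log2 fold change 1.19, SE 0.25, adjusted p = 0.0440, limma). It passed without SMA library 3 (adjusted p = 0.00631) and missed the threshold without any 1 of the other 7 libraries. In the difference between injuries 0 of 31 passed, with 2 higher and 6 lower at an unadjusted p under 0.05 (edgeR and limma fits).

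Interferon is known to induce C4 and Serping1 in many cells, so 21 interferon response genes were counted beside them. After BaCl2, 2 of 21 (Stat2 and Bst2) were called lower (median -0.33), where 1.56% of all genes were. The summed list was at 747, 842 and 1168 CPM in the SMA and 1163, 1171 and 1227 CPM in the WT libraries, so SMA libraries 1 and 2 were low and SMA library 3 was within the WT range. After glycerol 2 (Irf1 and Irf9) were called higher (median 0.47), where 1.7% of all genes were. The sum was at 189366 to 224988 normalized counts in SMA and 95845 to 184499 in WT, where WT library 1 was the lowest and the next was at 151944. In the difference 6 of 21 were higher (median 0.89), where 1.88% of all genes were. Stat2, Bst2, Irf1 and Irf9 were named after their values were seen. The fitted sign of C4b differed between the injuries as this list's median did. That of Serping1 did not, with log2 fold changes of -0.35 after BaCl2 and -0.02 after glycerol. The relation of either gene to the list was not tested.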

How the data were processed

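Gene expression was measured by RNA-seq of poly(A)-selected RNA in 14 libraries of sorted FAPs. The BaCl2 count values are whole-number reads per gene as deposited. For glycerol, the signal in the table is read counts that the authors had normalized before deposit, judged from the values. The log2 fold changes and p-values in the files come from the authors' own test, per the file headers, and are only set beside the tests made here. The submitters' processing notes name fastp, Salmon, featureCounts and DESeq2. The sources used here do not give aligner, build or annotation, and reads that match a paralog equally well may have been assigned or dropped by rules not known here. After BaCl2, another 6 columns, of z-scores, were not used.

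After BaCl2, counts were tested with edgeR 4.0.16 (TMM factors 0.953 to 1.05, filterByExpr, quasi-likelihood test). After glycerol, log2(value + 1) was tested with limma 3.58.1 with a mean-variance trend. The difference of the 2 fold changes was set against a t distribution with Satterthwaite degrees of freedom. P-values were adjusted by Benjamini-Hochberg over all genes tested, and genes were called under 0.05. A gene at 1 CPM has 97.7 counts or more in each BaCl2 library, and the number of libraries limits the precision. DESeq2 1.42.0, other scalings, filters and pseudocounts, left-out libraries and a replicate block were alternatives. Members, gene lists and tests were chosen with earlier results of these data known. Named were the members, their paralogs, other complement genes that passed and the 3 genes most like each of 6 members. One listed gene is not reported here. The steps were tested on simulated data with known changes.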

Additional observations from a re-analysis of the deposited data

Results flagged for a closer look

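In C1s1 after glycerol, SMA library 3 was at 48550 normalized counts (48549.8) and stood apart from the other 3 SMA libraries, at 38656 to 39755. Of 44 groups looked at, each has about a 5% chance of such a library.

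The SMA effect differed between injuries, tested as glycerol minus BaCl2 (edgeR and limma fits, adjusted over all genes), for 3.8% of 13960 genes. Of the genes followed under every setting, 4 were among them, none a member. The log2 difference was 0.85 for Stat2 (adjusted p = 0.0118), 0.70 for Irf1 (adjusted p = 0.0115) and 0.67 for Irf9 (adjusted p = 0.0136), all of interferon signalling. It was 0.86 for Dpt, a matrix gene of FAPs (adjusted p = 0.0118).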

How the results depend on the processing

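After BaCl2, the 4 members called higher (C1qa, C1qb, C1qc and C3ar1) were also called with DESeq2 size factors, DESeq2, no filter on low counts, limma on log2 CPM and paralogs summed, the last 2 chosen after the data were seen. Without SMA libraries 1 and 2, which leaves 1 SMA library assumed to vary as WT does, it was 1 member, with 72 genes higher and 36 lower over all genes (549 and 314 as reported). DESeq2 called 972 higher and 715 lower with 1 member lower, and without the filter it was 1084 and 783 with 3 members lower. With each library left out in turn, 34 to 902 genes were higher and 7 to 675 lower, and of the members 1 to 4 higher and 0 to 1 lower.

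After glycerol, 0 members were called under every setting but the one without SMA library 3, which called 4, so leaving out each library gave 0 to 4. Over all genes 243 were higher and 168 lower, with median centring 255 and 330, and with no mean-variance trend 2 and 0. Leaving out each library gave 0 to 1081 higher and 0 to 564 lower. The fitted values of C3 (-0.32 to 0.10) and Serping1 (-0.13 to 0.10) changed sign over these.

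For the difference between injuries, the normal reference gave 772 genes higher and 698 lower (262 and 268 as reported), with 1 member higher. Without SMA libraries 1 and 2 after BaCl2, again with 1 SMA library there, it was 49 and 23, and the values of C3ar1 (0.043) and C1rb (0.33) changed sign. Leaving out each library gave 93 to 573 higher and 80 to 489 lower, with 0 to 1 members higher, and moved C1qa from -0.15 to 0.42, C1qb from -0.085 to 0.42, C1qc from -0.052 to 0.47, C3ar1 from -0.36 to 0.11, C3 from -0.12 to 0.40 and Itgax from -0.51 to 0.071. The cause was not tested.

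Deviations of libraries with the same number correlated at -0.18 to 0.14 after BaCl2 and -0.01 to 0.26 after glycerol. Of the numbers, 4 of 7 were best with their own. The labels name no pairing by library number, and these values do not settle one. With that number as a replicate block, 664 genes were higher and 480 lower after BaCl2, with 1 member lower (Serping1, adjusted p = 0.0239, edgeR), 184 and 73 after glycerol, where C5ar2 did not pass (adjusted p = 0.0659, limma), and 466 and 402 in the difference, with 2 members higher (C1s1, adjusted p = 0.0308, and C4b, 0.00889). Depth limits genes such as C1rb, at 70 to 95 reads in 4 BaCl2 libraries.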

Other observations

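C2 and Cfb are adjacent genes whose products cleave C3 in the classical and alternative branches. After BaCl2 C2 was at 3.19 to 5.31 CPM and Cfb at 3.23 to 6.04 CPM in the 6 libraries. After glycerol C2 was at 1763 to 4580 and Cfb at 19136 to 40045 normalized counts in the 8 libraries, where C3 was at 60019 to 131360. The annotation behind the tables is not given in the sources used here. Gm20547, a gene model taken to overlap this pair, was at 0 CPM in each BaCl2 library, so no reads were assigned to it there. Whether reads of the pair were dropped, or assigned to another gene model, was not tested. Levels are not compared between the tables.

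Cd163, a scavenger receptor of resident macrophages, was at 27.3, 10.1 and 2.73 CPM in SMA libraries 1, 2 and 3 after BaCl2 against 2.80 to 4.94 CPM in WT. Its order over the SMA libraries was that of the C1s2 and C1rb shares, and also that of the summed macrophage list (3268, 2720 and 2266 CPM). Other genes had the same order, among them C1qa, C3ar1, Mrc1 and Lyz2, so it does not single out Cd163. Cd163 did not pass (log2 fold change 1.88, SE 0.62, adjusted p = 0.125, edgeR), and the relation was not tested.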
